A study of Mus musculus with 50 samples.

Results

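The data describe 10 genes of nicotinamide adenine dinucleotide (NAD) metabolism in mouse liver and liver tumours. They are the salvage enzymes Nampt, Nmnat1 and Nmnat3, the nicotinamide riboside kinase Nmrk1, the de novo enzyme Qprt, the NAD synthetase Nadsyn1, the nicotinamide methyltransferase Nnmt, and the NAD consumers Sirt1, Cd38 and Parp1. Each was taken by name, 10 of 45792 gene rows. Nmrk1 was selected on these data, as the gene with the smallest p for diet in the diethylnitrosamine (DEN) tumours, and its relatives in the pathway were added around it. RNA came from C3H/He mice, a strain prone to liver tumours with age, harvested at 48 weeks.

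Groups were set by tissue, diet and carcinogen. Non-tumour liver came from mice on the control diet (12 libraries, N1 to N12) or on the ALIOS (American lifestyle) diet, a fat- and sugar-rich feed (11 libraries, N13 to N23). Spontaneous tumours came from mice given no DEN, 13 on ALIOS and 1, T7, on the control diet. Tumours from mice given DEN, a liver carcinogen that damages DNA, numbered 5 on the control diet (T17 to T21) and 8 on ALIOS (T15, T16 and T22 to T27). The dose and timing of DEN were not given in the sources used here. The labels do not name the mouse behind each library, so DEN tumours may share a mouse and p-values measure only the spread between these libraries. Total counts ran from 23798251 to 45751398 per library over the 49 libraries used.

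Several libraries stood apart. T1, a spontaneous tumour on ALIOS, held the kidney transcript Kap at 22735 CPM (counts scaled to a fixed total per library) and albumin, the main hepatocyte transcript, at 24.4 CPM against 47627 to 200435 CPM elsewhere. T1 was left out, which leaves 12 spontaneous tumours on ALIOS. T24, a DEN tumour on ALIOS, had the highest summed level of the tumour markers Afp, Gpc3 and Igdcc4, at 3415 CPM. T2, T6 and T23 are labelled tumours but had sums of only 5.82, 9.58 and 28.6 CPM, against at least 124 CPM in the other tumours and at most 2.35 CPM in the livers. Counts of members called in tumours on ALIOS are given with and without T2, T6, T23 and T24. In spontaneous tumours against liver the count is also given with T1. For single members, fold changes without these libraries are given only in part. The fold changes for diet in DEN tumours were fitted only with every DEN tumour in. The correlations and the counts for lists of marker genes and further NAD genes left out T1, and were not repeated without T2, T6, T23 or T24.

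NAD carries electrons in the oxidation of fuels and is also consumed as a substrate by sirtuins, poly(ADP-ribose) polymerases and the glycohydrolase CD38, all of which release nicotinamide. The liver builds NAD from tryptophan by the de novo route, from nicotinic acid by the Preiss-Handler route, and from nicotinamide or nicotinamide riboside by salvage, and it clears spare nicotinamide by methylation. Nampt sets the pace of nicotinamide salvage, and its transcription is known to follow the circadian clock.

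All 10 genes were detected in every library. Levels are given in CPM after scaling for library composition (TMM, trimmed mean of M-values), and between genes only per length, as CPM per kilobase of exon. On the per-length scale Qprt was the most abundant in control liver, with a median of 91.4, followed by Nampt at 23.6. Nnmt (8.29), Nadsyn1 (8.15), Nmnat1 (8.05), Nmrk1 (6.76) and Parp1 (6.67) had medians close together and overlapping ranges over the 12 livers. Cd38 (3.99), Sirt1 (2.47) and Nmnat3 (1.63) were lowest. Between the lowest and the highest of the 49 libraries, Nnmt varied 2674-fold, Nampt 5.57-fold and Nmrk1 5.39-fold, and the other members between 2.48-fold (Parp1) and 3.47-fold (Nmnat3). The range of Nnmt rests on T13, with 2 counts (0.0633 CPM, next T15 at 0.170 CPM), and on N5 (169 CPM, next N23 at 69.6 CPM).

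**Figure D1:**
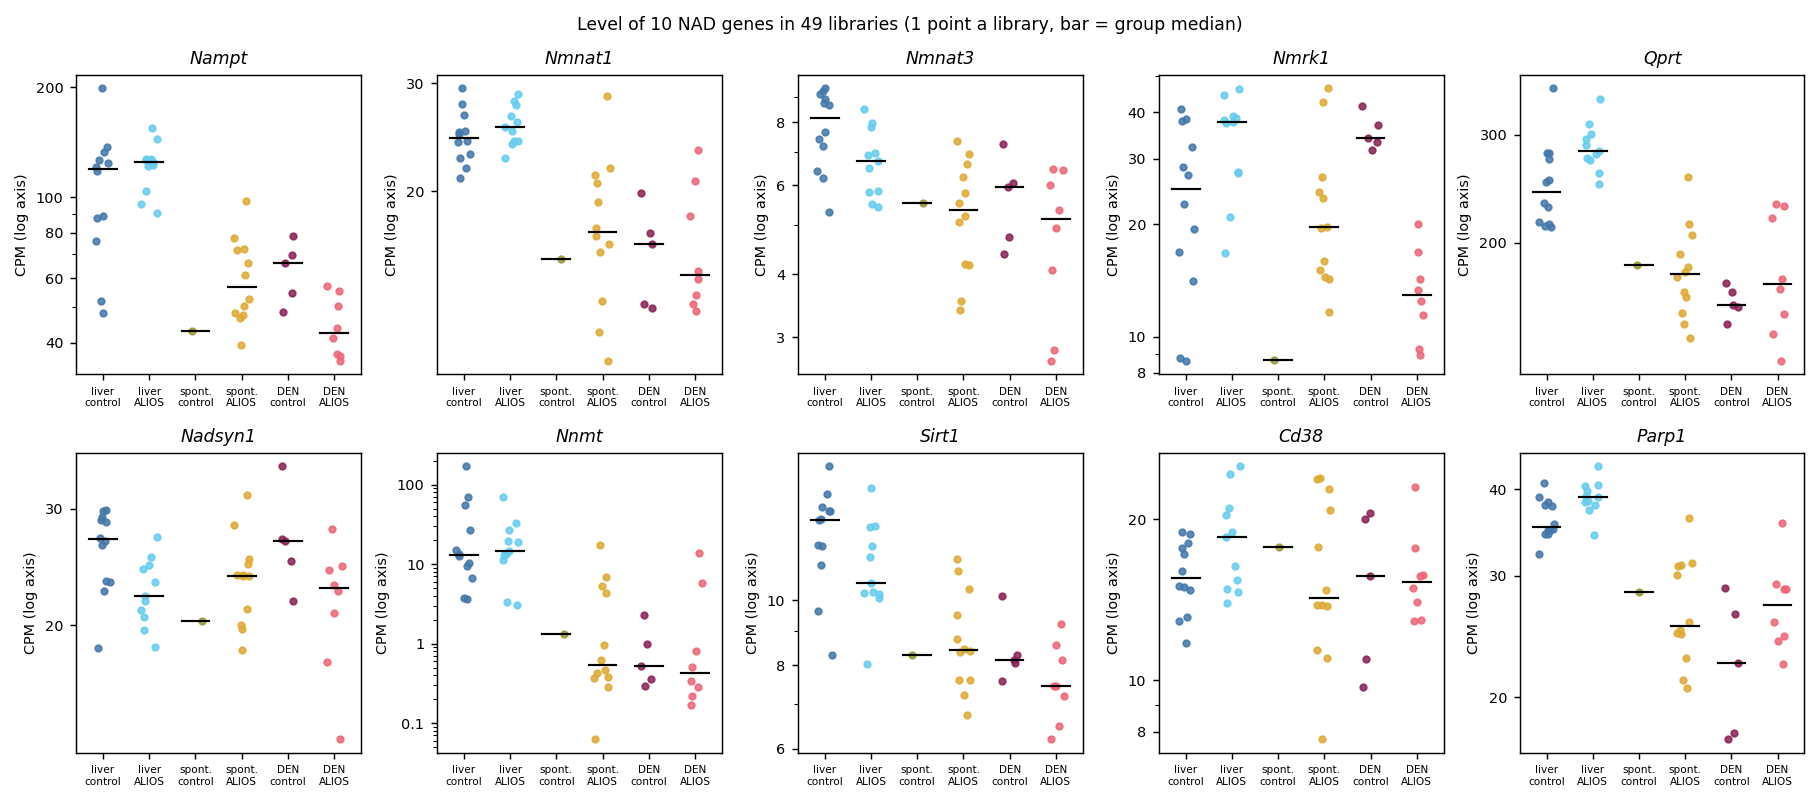
Level of each of the 10 genes (CPM, log axis, a separate scale for each gene) in 49 libraries, 1 point a library, by tissue and diet, with a bar at the group median. Nampt lies lower in the tumours than in most livers, Nnmt spans from 0.0633 to 169 CPM, and Nmrk1 is high in all 5 DEN tumours on the control diet and low in all 8 on ALIOS.

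Non-tumour livers were first compared between the diets. Qprt was above the control median in 11 of 11 ALIOS livers and Parp1 in 10 of 11, and Nmnat3, Nadsyn1 and Sirt1 were below it in 10 of 11. A gene was called where edgeR's quasi-likelihood test gave an adjusted p under 0.05. By that rule 0 of 10 members were called, where 11.2% of 13723 genes tested were (4.51% lower). Those 1542 genes became 623 of 17728 with all groups in one fit, and ran from 949 of 13774 (without N17) to 2343 of 13801 (without N13) with 1 library left out. At an unadjusted p under 0.05 there were 4 of 10 (Nmnat3, Qprt, Nadsyn1 and Parp1) against 29.3% of all genes, and DESeq2 called 1 of 10 (Nadsyn1) against 16% of all genes. The members' median log2 fold change was 0.06, beside -0.02 for all genes tested.

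In spontaneous tumours on ALIOS, most of the pathway was lower than in liver on the same diet. Salvage, de novo and clearance enzymes fell together with Sirt1 and Parp1, while Nadsyn1 and Cd38 did not pass the test. The test called 8 of 10 members, all lower, where 25.9% of 14183 genes were called lower and 52.8% in either direction. The called log2 fold changes ran from -0.33 (Nmnat3) to -2.73 (Nnmt), and the members' median was -0.52 beside 0.01 for all genes. Without T2 the count was 8 of 10, without T6 it was 6 of 10, and with T1 put back it was 5 of 10. The weakest calls, of Nmnat3 and Nmrk1, were the ones most often lost, and scaling by library totals gave 6 of 10, 5 lower and Nadsyn1 higher.

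DEN tumours were compared with liver on each diet, and the difference between the diets was not tested. On ALIOS, Nampt, Nmnat1, Nmnat3, Qprt, Nnmt, Sirt1 and Parp1 fell, and on the control diet these 7 fell as well. Since the DEN tumours chose Nmrk1, it has no test in any comparison with them, which leaves 9 members. On ALIOS 7 of 9 were called, all lower, where 19.8% of 14434 genes were called lower and 47.5% in either direction. On the control diet 7 of 9 were called, all lower, where 24.4% of 14731 genes were called lower and 51.7% in either direction. The members' medians were -0.50 on ALIOS and -0.59 on the control diet, beside 0.08 and 0.03 for all genes. Without T24 the count on ALIOS was 6 of 9, with Nmnat3 lost, and without T23 it was 7 of 9. Scaling by library totals gave 6 of 9 on ALIOS, with Nmnat3 lost, and 5 of 9 on the control diet, with Nampt and Nmnat3 lost. The ALIOS livers serve as reference for both kinds of ALIOS tumour, so those comparisons share their control libraries.

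DEN tumours were then compared directly with spontaneous tumours on ALIOS. Of the 9 members tested, Nampt had the smallest p. By edgeR 0 of 9 members were called, where 0% of 14845 genes were. At an unadjusted p under 0.05 there was 1 of 9 (Nampt, log2 fold change -0.45 ± 0.16 SE) against 7.27% of all genes, and DESeq2 called 0 of 9 against 0.451%. The members' median was -0.13, beside 0.00 for all genes. It was -0.05 without T24, -0.06 without T2, -0.21 without T23 and -0.12 without T6, with 0 of 9 called by edgeR each time and 2 of 9 at an unadjusted p under 0.05 without T23.

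**Figure D2:**
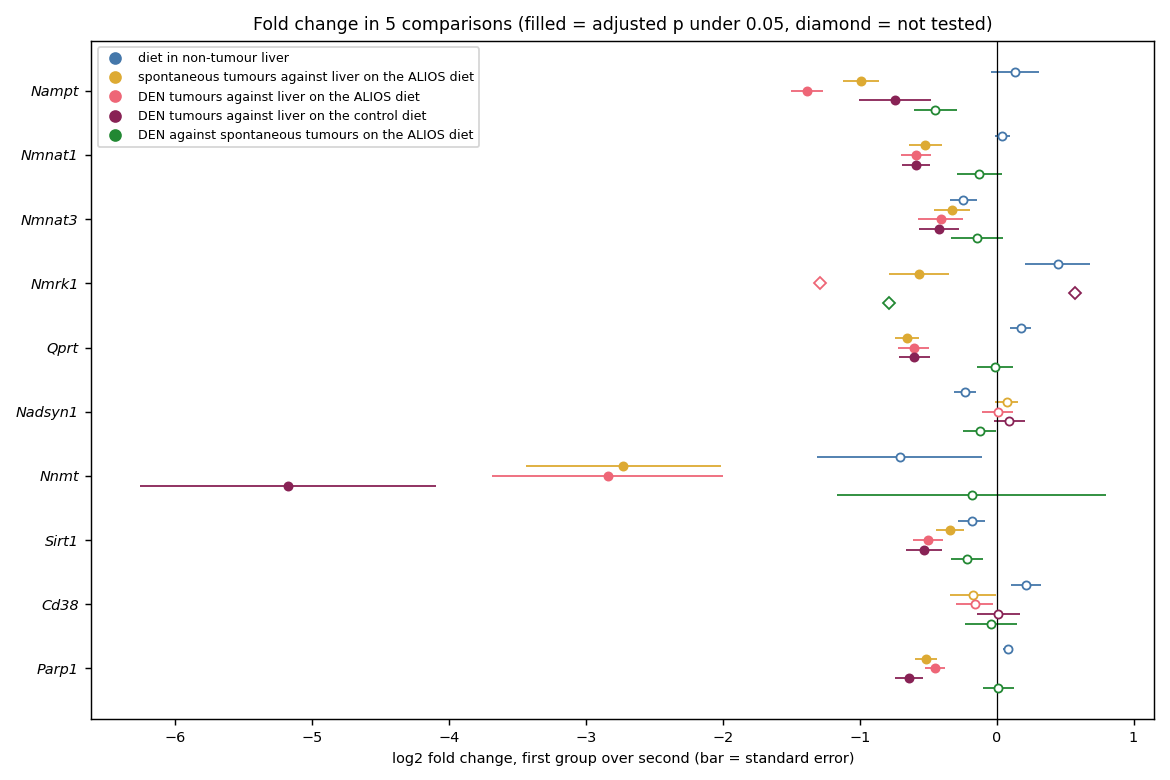
Log2 fold change of each gene in 5 comparisons, with the standard error as a bar. Filled circles passed an adjusted p under 0.05, open circles did not, and open diamonds, without a bar, mark Nmrk1 where it was not tested. In the 3 comparisons of tumour with liver, Nampt, Nmnat1, Nmnat3, Qprt, Nnmt, Sirt1 and Parp1 are filled and left of 0.

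Nampt (ENSMUSG00000020572.7, chromosome 12, bases 32819545 to 32853349, plus strand, build GRCm38) turns nicotinamide into nicotinamide mononucleotide. Control livers held 48.3 (N12) to 199 CPM (N6) with a median of 119, and ALIOS livers 90.5 (N22) to 155 CPM (N18) with a median of 125. The control livers were the more scattered, with N11 and N12 at 52.2 and 48.3 CPM and N6 far above the rest, and the diets overlapped. Spontaneous tumours on ALIOS held 39.4 (T4) to 97.7 CPM (T5) with a median of 56.9, and T7 held 43.1 CPM. The 5 DEN tumours on the control diet held 66.05, 69.5, 54.6, 48.7 and 78.6 CPM (T17 to T21), and the 8 on ALIOS 35.7 (T27) to 57.1 CPM (T26) with a median of 42.7. All 12 spontaneous tumours lay below the ALIOS liver median and 11 of them below every ALIOS liver, T5 being the exception, while the 8 DEN tumours on ALIOS did not overlap with liver at all. The DEN tumours on the control diet lay within the range of the control livers, below their median in 5 of 5.

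In liver the log2 fold change with diet was 0.13 ± 0.18 (SE, adjusted p = 0.654), and from 0.06 to 0.25 with 1 library left out. Nampt fell by 0.99 ± 0.13 in spontaneous tumours on ALIOS (adjusted p = 1.92e-06) and fell by 1.38 ± 0.12 in DEN tumours on ALIOS (adjusted p = 5.31e-08). In DEN tumours on the control diet it fell by 0.74 ± 0.26 (adjusted p = 0.0232). That last call was lost without T19 (-0.69, adjusted p = 0.0559), without T20 (-0.70, adjusted p = 0.0535) and with library totals (-0.66, adjusted p = 0.0516). Between DEN and spontaneous tumours on ALIOS the value was -0.45 (adjusted p = 0.379), with 7 of 8 DEN tumours below the spontaneous median. Each library is bulk tissue, so fewer cells of a type and less RNA per cell cannot be told apart for this or any other member.

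Nmnat1 (ENSMUSG00000028992.11, chromosome 4, bases 149467572 to 149485202, minus strand) and Nmnat3 (ENSMUSG00000032456.11, chromosome 9, bases 98287435 to 98420438, plus strand) join the mononucleotide to an adenylate to make NAD, in the nucleus and, for Nmnat3, in mitochondria. Nmnat1 was tight in liver, at 21.01 to 29.5 CPM on the control diet (median 24.4) and 22.7 to 28.8 CPM on ALIOS (median 25.5). It was 10.6 (T13) to 28.6 CPM (T2) in spontaneous tumours on ALIOS (median 17.2), 12.7 (T22) to 23.4 CPM (T23) in DEN tumours on ALIOS (median 14.6), and 12.9, 13.1, 17.1, 16.4 and 19.8 CPM in T17 to T21. Only T2 among the spontaneous tumours and T23 among the DEN tumours on ALIOS reached the ALIOS livers, and these are 2 of the 3 libraries with low tumour markers. The DEN tumours on the control diet did not overlap with control liver.

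Nmnat1 fell by 0.52 ± 0.12 in spontaneous tumours (adjusted p = 9.47e-04, below the liver median in 11 of 12). It fell by 0.59 ± 0.11 in DEN tumours on ALIOS (adjusted p = 1.88e-04, 8 of 8) and fell by 0.59 ± 0.10 on the control diet (adjusted p = 7.88e-05, 5 of 5). In liver its log2 fold change with diet was 0.04 ± 0.05, and from 0.02 to 0.07 with 1 library left out. Nmnat3 ranged from 5.31 to 9.35 CPM in control liver (median 8.17), 5.44 to 8.51 CPM in ALIOS liver (median 6.72), 3.40 to 7.35 CPM in spontaneous tumours (median 5.38) and 2.70 (T24) to 6.46 CPM in DEN tumours on ALIOS (median 5.15). T17 to T21 held 4.74, 5.96, 6.06, 7.23 and 4.38 CPM. These ranges overlapped in every comparison, and the Nmnat3 calls were weak.

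Nmnat3 fell by 0.33 ± 0.13 in spontaneous tumours (adjusted p = 0.0362, below the liver median in 10 of 12), fell by 0.41 ± 0.17 in DEN tumours on ALIOS (adjusted p = 0.0478, 8 of 8) and fell by 0.42 ± 0.15 on the control diet (adjusted p = 0.0220, 5 of 5). Leaving out N16, N17, N18, N21, N22, N23, T3, T5, T6, T8, T11, T12 or T13 ended the first call, with values from -0.31 (N23) to -0.24 (T12, adjusted p = 0.133). So did library totals (-0.15, adjusted p = 0.357), no filter on low counts (-0.29, adjusted p = 0.0981) and T1 put back (-0.12, adjusted p = 0.603). Leaving out N17, N18, N21, T16, T22, T24 or T26 ended the second (-0.32, adjusted p = 0.0746 without T24), and leaving out T17 (-0.36) or T21 (-0.37) ended the third. Library totals ended both (-0.28, adjusted p = 0.188, and -0.36, adjusted p = 0.0560). In liver the value with diet was -0.24 ± 0.10 (adjusted p = 0.105).

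Nmrk1 (ENSMUSG00000037847.11, chromosome 19, bases 18631950 to 18652428, plus strand) phosphorylates nicotinamide riboside. Control livers held 8.62 (N12) to 40.8 CPM (N3) with a median of 24.9, and ALIOS livers 16.8 (N21) to 46.2 CPM (N18) with a median of 37.7. Spontaneous tumours on ALIOS held 11.6 (T11) to 46.5 CPM (T5) with a median of 19.6, and T7 held 8.63 CPM. N11 (8.75 CPM) and N12 sat well below the other control livers, and T5 and T14 (42.6 CPM) well above the other spontaneous tumours, which otherwise did not exceed 26.9 CPM. The livers of both diets overlapped widely, and so did the spontaneous tumours and liver.

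Between the diets in liver the log2 fold change was 0.45 ± 0.24 (adjusted p = 0.221, above the control median in 9 of 11). In spontaneous tumours on ALIOS Nmrk1 fell by 0.57 ± 0.22 (adjusted p = 0.0323, below the liver median in 10 of 12). That call was lost when any of N16, N18, N20, T4, T6, T9, T10, T11, T12 or T13 was left out, to -0.46 (adjusted p = 0.0847) without T12. It was also lost with T1 put back (-0.47, adjusted p = 0.0822), with library totals (-0.40, adjusted p = 0.125) and with no filter on low counts (-0.53, adjusted p = 0.0595).

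The DEN tumours are the libraries that chose Nmrk1, and its values there are a description without a test. T17 to T21, on the control diet, held 33.4, 31.6, 37.1, 41.5 and 34.1 CPM. On ALIOS, T15, T16, T22 and T23 held 12.4, 14.2, 20.1 and 9.26 CPM, and T24 to T27 held 11.4, 8.93, 16.8 and 13.4 CPM. Every DEN tumour on ALIOS lay below every DEN tumour on the control diet, and the log2 fold change was -1.41. The mean on ALIOS was 13.3 ± 3.76 CPM (SD, n = 8) and 13.6 ± 3.97 CPM without T24. Sik1, next in order of p for that contrast, had a log2 fold change of -0.85, with 14.7 (T24) to 23.96 CPM (T22) on ALIOS and 33.1, 34.0, 34.0, 37.0 and 29.0 CPM in T17 to T21.

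Against liver, Nmrk1 in the DEN tumours lay on opposite sides on the 2 diets. All 8 DEN tumours on ALIOS were below the ALIOS liver median and 6 of them below every ALIOS liver, with a log2 fold change of -1.29. All 5 on the control diet were above the control liver median, though only T20 was above every control liver, with a log2 fold change of 0.57. Against spontaneous tumours on ALIOS the DEN tumours on ALIOS differed by -0.78, with 7 of 8 below the spontaneous median. For the other members, diet in DEN tumours is again given as a description. The log2 fold changes were -0.50 for Nampt, -0.31 for Nadsyn1, -0.22 for Nmnat3 and -0.15 for Sirt1. They were 0.05 for Nmnat1 and Cd38, 0.18 for Qprt, 0.28 for Parp1 and 1.62 for Nnmt. The Nnmt medians ran the other way, at 0.422 CPM on ALIOS and 0.526 CPM on the control diet. Of the 8 tumours on ALIOS, 5 lay below the control median of Nnmt and 3 above it. T23, with low tumour markers, was the highest of them at 13.9 CPM, and no fold change was fitted without it.

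Over all groups together, Nampt was the member whose level went most with Nmrk1. After group means were removed, the correlation of log2 CPM between them was 0.71 over 48 libraries (T7, alone in its group, left out), the highest of 45 pairs of members. Pearson's r and Spearman's rho within groups were 0.75 and 0.66 in control liver (n = 12), 0.88 and 0.82 in ALIOS liver (n = 11), 0.76 and 0.66 in spontaneous tumours (n = 12) and 0.60 and 0.50 in DEN tumours on ALIOS (n = 8). Among control livers, N11 and N12 were lowest in both genes (8.75 and 8.62 CPM of Nmrk1, 52.2 and 48.3 CPM of Nampt). The r of control liver was not computed without them. In DEN tumours on the control diet the pair ran the other way, at -0.86 and -0.70 (n = 5), with the highest Nmrk1 and the lowest Nampt both in T20. Nadsyn1 had r and rho with Nmrk1 of 0.85 and 0.70 in control liver, above those of Nampt, 0.19 and 0.21 in ALIOS liver, 0.59 and 0.69 in spontaneous tumours, 0.74 and 0.60 in DEN tumours on the control diet and 0.27 and 0.40 in those on ALIOS. In the latter, Nmnat1 (-0.83 and -0.88), Nnmt (-0.76 and -0.57) and Parp1 (-0.61 and -0.67) went further with Nmrk1 than Nampt did, in the opposite direction. These are descriptions of libraries that share scaling and sequencing. N6, with the highest Nampt at 199 CPM, had only 16.8 CPM of Nmrk1, and the DEN tumours on the control diet had Nmrk1 at liver levels with less Nampt than most livers. The next pairs were Qprt with Nmnat1 (0.62) and Nadsyn1 with Nmrk1 (0.51).

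**Figure D3:**
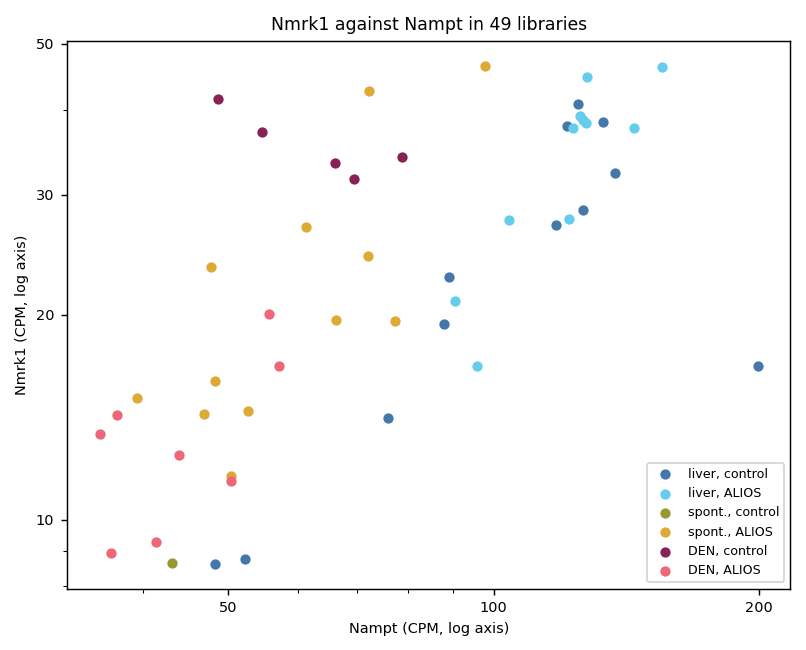
Nmrk1 against Nampt in 49 libraries (CPM, log axes), coloured by group. Within the livers and the spontaneous tumours the levels of the pair go together. The 5 DEN tumours on the control diet slope the other way, with 31.6 to 41.5 CPM of Nmrk1 at 48.7 to 78.6 CPM of Nampt. The spontaneous tumour T14 lies near them, with 42.6 CPM of Nmrk1 and 72.2 CPM of Nampt.

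Promoter windows (250 bases before to 50 after the start of the transcript, from RefSeq, build GRCm38.p6) were found for 9 of 10 members, all but Nnmt. Those of Nmrk1 and Nampt are shown because the pair had the highest correlation among members once group means were removed, and those of Sirt1 and Parp1 because they hold the letters CACGTG. Each reads from the 5′ to the 3′ end of its own strand. Capitals mark the E-box CACGTG, the GC box GGGCGG and the CCAAT box CCAAT, each searched on both strands, and overlapping GC boxes run together. The windows are Nmrk1 at chr19:18631766-18632065 and Nampt at chr12:32820085-32820384 on the plus strand, Sirt1 at chr10:63338986-63339285 on the minus strand and Parp1 at chr1:180568641-180568940 on the plus strand.
Nmrk1: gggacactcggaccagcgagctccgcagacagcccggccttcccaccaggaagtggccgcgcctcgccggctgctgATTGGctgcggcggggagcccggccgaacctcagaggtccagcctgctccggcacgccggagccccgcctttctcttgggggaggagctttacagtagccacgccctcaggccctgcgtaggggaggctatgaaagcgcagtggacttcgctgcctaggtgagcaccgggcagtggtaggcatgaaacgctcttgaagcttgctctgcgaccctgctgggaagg
Nampt: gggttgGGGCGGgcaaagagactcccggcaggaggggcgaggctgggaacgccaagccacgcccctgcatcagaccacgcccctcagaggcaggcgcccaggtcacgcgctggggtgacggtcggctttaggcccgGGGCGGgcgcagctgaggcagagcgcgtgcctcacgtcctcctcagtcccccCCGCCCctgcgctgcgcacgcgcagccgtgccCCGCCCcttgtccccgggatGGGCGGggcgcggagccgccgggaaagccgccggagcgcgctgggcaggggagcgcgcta
Sirt1: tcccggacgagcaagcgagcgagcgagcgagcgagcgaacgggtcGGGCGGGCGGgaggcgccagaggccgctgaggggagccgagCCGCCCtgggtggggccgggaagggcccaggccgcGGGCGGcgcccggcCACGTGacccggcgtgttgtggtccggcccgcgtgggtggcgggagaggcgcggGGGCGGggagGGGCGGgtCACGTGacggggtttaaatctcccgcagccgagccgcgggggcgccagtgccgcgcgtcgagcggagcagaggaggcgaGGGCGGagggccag
Parp1: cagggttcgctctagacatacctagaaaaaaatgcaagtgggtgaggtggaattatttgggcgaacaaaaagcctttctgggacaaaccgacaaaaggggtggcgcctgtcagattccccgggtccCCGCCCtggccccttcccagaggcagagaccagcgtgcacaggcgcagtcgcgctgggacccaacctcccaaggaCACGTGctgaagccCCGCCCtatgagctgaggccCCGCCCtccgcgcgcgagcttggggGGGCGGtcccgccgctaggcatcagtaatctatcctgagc

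The Nmrk1 window held 1 CCAAT box and no GC box, and the Nampt window 5 GC boxes and no CCAAT box. Sirt1 held 2 E-boxes and 7 GC boxes, and Parp1 held 1 E-box and 4 GC boxes. No other member's window held an E-box, and none of the 9 held the D-box TTATGNAA. Of all 32851 promoters in the table, 7.15% held an E-box, 3.38% a D-box, 35.7% a GC box and 37.4% a CCAAT box. A match describes letters and no binding site, and a missing match says only that these letters are not in this window. G and C made up 67.3% of the Nmrk1 window, 76.3% of Nampt, 79% of Sirt1 and 62% of Parp1, against a median of 52.7% over all promoters. Nmnat3 (49%) and Cd38 (51.7%) were below that median and the other members above it.

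The genes whose level over the 49 libraries was most like that of Nmrk1 were A930033H14Rik, Riok2, Fam169b and Angel2 (Pearson's r of log2 CPM 0.82 each) and Gm15889 (0.79). Within groups (48 libraries) their r were 0.77, 0.75, 0.71, 0.75 and 0.76. Nampt stood in place 49 of 17727 genes compared over all libraries (0.69) and in place 11 within groups. The 49 libraries include the DEN tumours that chose Nmrk1, so these values are a description. Of a list of 14 clock genes, 10 had a positive r with Nmrk1 over the 49 libraries, from 0.22 (Cry1) to 0.75 (Per1 and Per2). The share of all genes with a positive r was not counted, but Parp1 (0.08) stood in place 6106 and Cd38 (-0.04) in place 9568. The other 4 had a negative r, from -0.43 (Nr1d1) to -0.79 (Npas2, a partner of the clock activator Arntl). Within groups each of the 14 kept its sign, with 0.26 for Cry1, 0.68 for Per1, 0.71 for Per2, -0.46 for Nr1d1 and -0.63 for Npas2.

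In DEN tumours on ALIOS 4 of 14 clock genes were called higher than in ALIOS liver and 7 lower, against 1 and 1 of 13 in DEN tumours on the control diet, 1 and 2 of 13 in spontaneous tumours, and none of 13 with diet in liver by edgeR. Of all genes 47.5%, 51.7%, 52.8% and 11.2% were called in these comparisons. Compared directly, DEN and spontaneous tumours on ALIOS differed in none of 14 clock genes by edgeR, where 0% of all genes were called. The summed level of the 14 genes was 321 (T27) to 954 CPM (T22) in DEN tumours on ALIOS, with a median of 440. It was 914, 917, 1041, 1226 and 746 CPM in T17 to T21, 338 (N12) to 1083 CPM in control liver, 645 to 1003 CPM in ALIOS liver and 640 to 1025 CPM in spontaneous tumours on ALIOS. Tef made up the largest part of the sum by its mean over the 49 libraries, but in DEN tumours on ALIOS Nr1d1 (median 84.7 CPM) made up more of it than Tef (64.5 CPM). None of the 14 was undetected.

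Arntl itself was 0.583 to 2.45 CPM in the DEN tumours on the control diet and 11.2 to 32.3 CPM in 6 of 8 on ALIOS. The other 2, T22 and T24, had Arntl at 1.496 and 0.923 CPM, within the range of the DEN tumours on the control diet, and Nmrk1 at 20.1 and 11.4 CPM, still below all of them. Other clock genes in these 2 libraries were not all within that range. Npas2 was above it in both (0.671 and 0.586 CPM, against 0.130 to 0.333 CPM), and in T24 Per3 (19.2 CPM against 66.2 to 136 CPM) and Dbp (58.7 CPM against 94.4 to 286 CPM) were below it, while T22 was within it for both. Among the other groups, N11, N12 and T7 had Arntl at 21.1, 23.1 and 24.1 CPM, and the lowest Nmrk1 of all 49 libraries, at 8.75, 8.62 and 8.63 CPM. Nampt was at 52.2, 48.3 and 43.1 CPM in N11, N12 and T7. It was 35.7 (T27) to 57.1 CPM (T26) in the 6 DEN tumours on ALIOS with high Arntl, and 55.5 and 50.3 CPM in T22 and T24. The part of the clock genes in the level of Nmrk1 or Nampt was not tested.

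**Figure D4:**
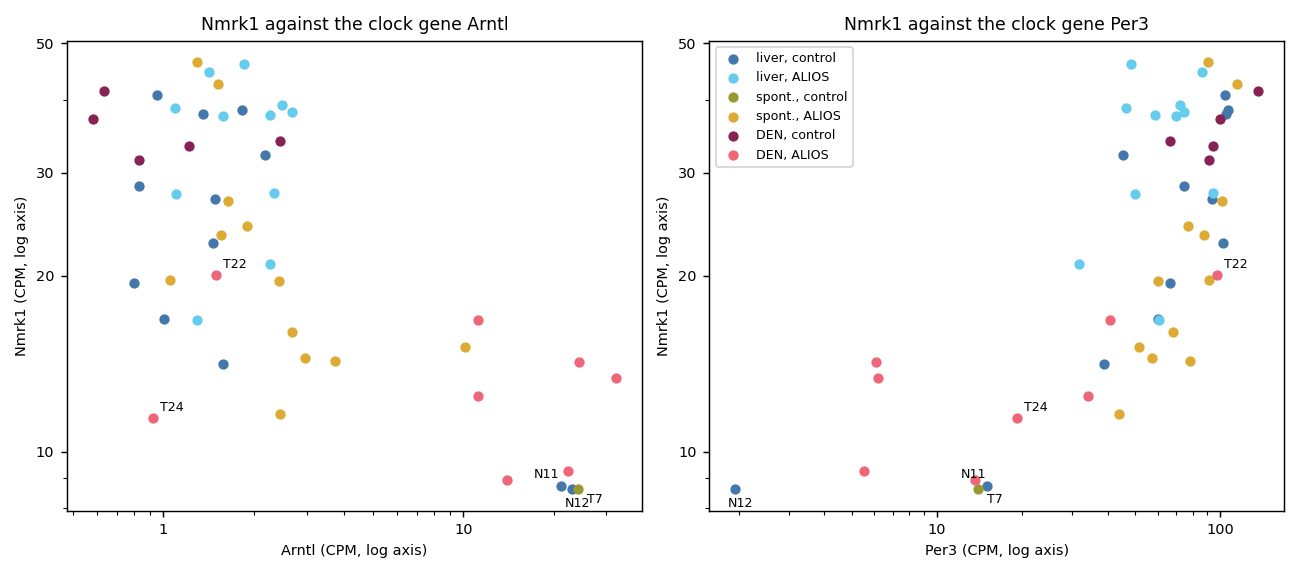
Nmrk1 against the clock genes Arntl (left) and Per3 (right) in 49 libraries (CPM, log axes), coloured by group. N11, N12, T7 and 6 of the 8 DEN tumours on ALIOS have Arntl at 11.2 CPM or more with little Nmrk1, while T22 and T24 have little Arntl and less Nmrk1 than any DEN tumour on the control diet.

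Qprt (ENSMUSG00000030674.5, chromosome 7, bases 127107114 to 127122226, minus strand) makes nicotinic acid mononucleotide from quinolinate, where the de novo route joins the others. Control livers held 212 (N5) to 358 CPM (N9) with a median of 242, and ALIOS livers 249 to 343 CPM with a median of 282. Spontaneous tumours on ALIOS held 140 (T9) to 256 CPM (T2) with a median of 178, DEN tumours on ALIOS 128 to 231 CPM with a median of 171, and T17 to T21 147, 166, 172, 158 and 157 CPM. Apart from T2, no tumour on ALIOS reached the lowest ALIOS liver, and the DEN tumours did not overlap with liver on either diet.

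Qprt fell by 0.66 ± 0.09 in spontaneous tumours (adjusted p = 2.58e-06, below the liver median in 12 of 12). It fell by 0.61 ± 0.11 in DEN tumours on ALIOS (adjusted p = 2.15e-04, 8 of 8) and fell by 0.60 ± 0.11 on the control diet (adjusted p = 1.91e-04, 5 of 5). With diet in liver its log2 fold change was 0.17 ± 0.08 (adjusted p = 0.129), and it was called there without N9 (0.24, adjusted p = 0.0134), the control liver with the highest level, and with library totals (0.23, adjusted p = 0.0237). Of 8 genes upstream of Qprt, from tryptophan to quinolinate or its side branch, 7 were tested. Of these, 6 were called lower in spontaneous tumours, 4 in DEN tumours on ALIOS and 7 in DEN tumours on the control diet, and none was called higher in these 3 comparisons. Of all genes 25.9%, 19.8% and 24.4% were called lower there.

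Nadsyn1 (ENSMUSG00000031090.12, chromosome 7, bases 143795584 to 143822849, minus strand) amidates nicotinic acid adenine dinucleotide to NAD, the last step of the Preiss-Handler and de novo routes. It was steady across tissues. Medians were 26.95 CPM in control liver (range 18.5 to 29.8), 22.1 in ALIOS liver (18.5 to 27.2), 23.7 in spontaneous tumours on ALIOS (18.4 to 31.4) and 22.8 in DEN tumours on ALIOS (13.5 in T24 to 27.9), and T17 to T21 held 25.02, 26.8, 27.005, 34.7 and 21.8 CPM. All groups overlapped. Its log2 fold changes against liver were 0.07 ± 0.08 in spontaneous tumours, 0.01 ± 0.11 in DEN tumours on ALIOS and 0.09 ± 0.12 in DEN tumours on the control diet, with adjusted p of 0.472, 0.961 and 0.525. With library totals the first was called, at 0.25 (adjusted p = 0.0197).

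Between the diets in liver Nadsyn1 came closest to a call, at -0.23 ± 0.08 (adjusted p = 0.0572, below the control median in 10 of 11). DESeq2 called it (-0.23, adjusted p = 0.0351), and so did edgeR without N6 (-0.25, adjusted p = 0.0439), N12 (-0.27, adjusted p = 0.0199), N13 (-0.25, adjusted p = 0.0415) or N16 (-0.26, adjusted p = 0.0310).

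Nnmt (ENSMUSG00000032271.11, chromosome 9, bases 48591877 to 48605153, minus strand) methylates nicotinamide for excretion. Control livers held 3.69 (N12) to 169 CPM (N5) with a median of 13.1, and ALIOS livers 3.06 (N20) to 69.6 CPM (N23) with a median of 14.5. Spontaneous tumours on ALIOS held 0.0633 (T13, 2 counts) to 17.3 CPM (T2) with a median of 0.542, and T7 held 1.33 CPM. DEN tumours held 0.170 (T15) to 13.9 CPM (T23) with a median of 0.422 on ALIOS, and 0.988, 0.297, 2.30, 0.363 and 0.526 CPM in T17 to T21. Of the tumours on ALIOS, 8 of 12 spontaneous and 6 of 8 DEN tumours lay below every ALIOS liver. T2 and T23, with low tumour markers, were the highest, and T3 (6.90 CPM), T5 (5.29 CPM), T6 (4.32 CPM) and T25 (5.805 CPM) reached the low end of the livers. The DEN tumours on the control diet did not overlap with control liver.

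Nnmt fell by 2.73 ± 0.71 in spontaneous tumours (adjusted p = 0.00271, below the liver median in 11 of 12) and the value was -3.47 without T2. It fell by 2.84 ± 0.84 in DEN tumours on ALIOS (adjusted p = 0.00946, 8 of 8), and the value was -4.16 without T23. On the control diet it fell by 5.18 ± 1.08 (adjusted p = 5.17e-04, 5 of 5). That last value was -4.51 without N5, whose level was the highest, and -5.89 without T19, the ends of its range with 1 library left out. For diet in liver the value was -0.71 ± 0.60 (adjusted p = 0.454), and -0.03 without N5. Between DEN and spontaneous tumours it was -0.18 ± 0.98, and 0.58 without T2 or -1.44 without T23, so its direction there rests on single libraries.

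Among the consumers, Sirt1 (ENSMUSG00000020063.14, chromosome 10, bases 63319005 to 63381704, minus strand), an NAD-dependent deacetylase, held 8.29 to 15.8 CPM in control liver (median 13.2) and 8.02 to 14.7 CPM in ALIOS liver (median 10.6). It held 6.73 to 11.5 CPM in spontaneous tumours on ALIOS (median 8.42), 6.21 to 9.21 CPM in DEN tumours on ALIOS (median 7.45) and 8.07, 10.1, 7.58, 8.29 and 8.14 CPM in T17 to T21. Below every liver of their diet lay 4 of 12 spontaneous tumours, 5 of 8 DEN tumours on ALIOS and 4 of 5 on the control diet, and the rest overlapped with the livers. Sirt1 fell by 0.34 ± 0.10 in spontaneous tumours (adjusted p = 0.00705, below the liver median in 10 of 12), fell by 0.50 ± 0.11 in DEN tumours on ALIOS (adjusted p = 8.64e-04, 8 of 8) and fell by 0.53 ± 0.13 on the control diet (adjusted p = 0.00210, 5 of 5). The first call was lost with T1 put back (-0.22, adjusted p = 0.163) and with library totals (-0.17, adjusted p = 0.216).

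Parp1 (ENSMUSG00000026496.9, chromosome 1, bases 180568924 to 180601254, plus strand), the main DNA-damage-activated poly(ADP-ribose) polymerase, held 32.3 to 40.8 CPM in control liver (median 35.3) and 34.3 to 43.2 CPM in ALIOS liver (median 39.0). It held 20.6 (T3) to 36.4 CPM (T6) in spontaneous tumours on ALIOS (median 25.4), 22.4 to 35.8 CPM (T24) in DEN tumours on ALIOS (median 27.2) and 22.4, 26.4, 17.4, 17.8 and 28.8 CPM in T17 to T21. T6 and T24 were the only tumours on ALIOS in the range of the ALIOS livers, and the DEN tumours on the control diet lay below every control liver. Parp1 fell by 0.52 ± 0.08 in spontaneous tumours (adjusted p = 1.64e-05, 12 of 12 below the liver median), fell by 0.45 ± 0.07 in DEN tumours on ALIOS (adjusted p = 5.49e-05, 8 of 8) and fell by 0.64 ± 0.10 on the control diet (adjusted p = 4.07e-05, 5 of 5). Sirt1 shares 65 exon bases with an antisense gene that had 0 counts, and Parp1 shares 7 with a microRNA gene of 0.612 counts on average.

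Cd38 (ENSMUSG00000029084.5, chromosome 5, bases 43868553 to 43912375, plus strand), an ectoenzyme that hydrolyses NAD and is abundant on immune cells, was the member that passed the test in no comparison, by edgeR or DESeq2. Its medians were 15.5 CPM in control liver (11.7 to 18.95), 18.6 in ALIOS liver (13.9 to 25.1), 14.3 in spontaneous tumours on ALIOS (7.76 to 23.97) and 15.3 in DEN tumours on ALIOS (12.9 to 23.1). T17 to T21 held 20.5, 15.7, 10.9, 9.72 and 20.0 CPM. Of the spontaneous tumours, 6 of 12 lay below every ALIOS liver and 4 of 12 above the liver median, and all groups overlapped. The log2 fold changes were 0.21 ± 0.11 with diet in liver (adjusted p = 0.186, above every control liver in 5 of 11), -0.18 ± 0.17 in spontaneous tumours, -0.16 ± 0.14 in DEN tumours on ALIOS and 0.01 ± 0.16 on the control diet.

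Several marker lists moved in the same comparisons, where of all genes 11.2% were called with diet in liver, 52.8% in spontaneous tumours, 47.5% in DEN tumours on ALIOS and 51.7% in DEN tumours on the control diet. The macrophage list held 10 genes. In liver 8 of 10 were called higher on ALIOS, and against liver 8 of 10 were lower in spontaneous tumours, 2 of 10 in DEN tumours on ALIOS, and 5 of 10 in DEN tumours on the control diet with 1 higher. Their summed level was 194 to 501 CPM in control liver, 283 to 1056 CPM in ALIOS liver, 52.3 to 522 CPM in spontaneous tumours on ALIOS and 52.5 to 622 CPM in DEN tumours on ALIOS. T17 to T21 held 225, 69.7, 212, 112 and 197 CPM. Cd5l made up the largest part of the sum by its mean over the 49 libraries, and none was undetected. Proliferation genes, a list of 8, were called higher in 5, 7 and 8 of 8 in the 3 tumour comparisons in the same order, and in 3 of 5 tested with diet in liver. Their sums were 3.90 to 8.80 CPM in control liver, 6.27 to 43.4 CPM in ALIOS liver, 16.5 to 80.5 CPM in spontaneous tumours on ALIOS, 16.2 to 153 CPM in DEN tumours on ALIOS, and 42.6, 30.0, 29.3, 46.5 and 52.6 CPM in T17 to T21, with Mki67 the largest part by its mean and none undetected. The part of either list in the members' changes was not tested.

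Beside the same shares of all genes, of 7 stellate and fibroblast markers, 2 were called higher on ALIOS in liver, 1 was higher and 2 lower in spontaneous tumours, 3 and 2 in DEN tumours on ALIOS, and 4 and 2 in DEN tumours on the control diet. Their sums were 138 to 303 CPM in control liver, 195 to 548 CPM in ALIOS liver, 96.0 to 512 CPM in spontaneous tumours on ALIOS, 130 to 1241 CPM (T24) in DEN tumours on ALIOS, and 661, 168, 264, 245 and 322 CPM in T17 to T21. Dcn made up the largest part by its mean. Of 8 T and NK cell markers, 3 of 5 tested were higher on ALIOS in liver, 1 was higher and 1 lower of 7 in spontaneous tumours, none of 7 was called in DEN tumours on ALIOS, and 4 were higher and 1 lower of 6 in DEN tumours on the control diet. Their sums were at most 30.4 CPM (T24) in any of the 49 libraries, with Cd4 the largest part by its mean. No gene of these 2 lists was undetected, and their part in the members' changes was not tested.

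Hepatocyte markers, a list of 12 led by Alb, moved both ways, with 4 higher and 5 lower in spontaneous tumours, 4 and 3 in DEN tumours on ALIOS and 4 and 4 in DEN tumours on the control diet, where 52.8%, 47.5% and 51.7% of all genes were called. Their summed level was higher in most tumours than in liver, with medians of 209884 CPM in spontaneous tumours on ALIOS and 199776 CPM in DEN tumours on ALIOS against 124532 CPM in ALIOS liver. T2 (95116 CPM), T6 (97277 CPM) and T23 (98125 CPM) were the lowest tumours. T17 to T21 held 233828, 214649, 216759, 252094 and 200637 CPM, against 101153 to 153830 CPM in control liver. Of these genes, Cyp2e1 and Glul mark hepatocytes near the central vein. Cyp2e1 had medians of 5699 CPM in control liver, 5608 CPM in ALIOS liver, 256 CPM in spontaneous tumours on ALIOS, 234 CPM in DEN tumours on the control diet and 674 CPM in DEN tumours on ALIOS, and was called lower in all 3 tumour comparisons. Glul was called lower in spontaneous tumours and in DEN tumours on the control diet. T24 stood apart with 17552 CPM of Glul, where no liver exceeded 1329 CPM, and 5975 CPM of Cyp2e1. None of the 12 was undetected, and the part of the hepatocyte genes in the fall of Qprt, Nnmt and the other called members was not tested.

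A wider list of 42 genes of NAD metabolism, none of them a member, was counted in the same fits, and 39 were tested. With diet in liver 5 of 39 were called, 3 higher and 2 lower, where 11.2% of all genes were, with a median log2 fold change of -0.03. The higher were Nt5e (1.10 ± 0.24), an ectonucleotidase, Parp8 (0.71 ± 0.20) and Nnt (0.37 ± 0.07), the mitochondrial transhydrogenase, and the lower were Acmsd (-0.84 ± 0.20), which diverts the de novo route from quinolinate, and Aox3 (-0.81 ± 0.19). In spontaneous tumours 9 were higher and 20 lower (median -0.23), where 52.8% of all genes were called. In DEN tumours 10 were higher and 16 lower on ALIOS (median -0.19), where 47.5% were, and 6 and 20 on the control diet (median -0.46), where 51.7% were. DEN and spontaneous tumours on ALIOS differed in 0 of 39 by edgeR (3 of 39 at an unadjusted p under 0.05), where 0% of all genes were called, with a median of 0.00.

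The counts differed between the genes' roles, a difference that was not tested. Of all genes, 52.8% were called in spontaneous tumours (25.9% lower), 47.5% in DEN tumours on ALIOS (19.8% lower) and 51.7% in DEN tumours on the control diet (24.4% lower). Of 8 tested Preiss-Handler, salvage and phosphorylation genes, 7 were lower and 1 higher in spontaneous tumours, 6 and 1 in DEN tumours on ALIOS, and 6 lower in DEN tumours on the control diet. Of 16 ADP-ribosyltransferases and NAD glycohydrolases, 2 were lower and 7 higher in spontaneous tumours, 2 and 8 in DEN tumours on ALIOS, and 2 and 5 on the control diet. Of the 6 other sirtuins, 3 were lower and 1, Sirt6, higher in each of the 3 comparisons. Both aldehyde oxidases, which oxidise methylated nicotinamide, were lower in spontaneous tumours and in DEN tumours on the control diet, and 1 of them in DEN tumours on ALIOS.

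The smallest p among genes lower in spontaneous tumours were those of Pnp (-0.82 ± 0.10), Kmo (-0.89 ± 0.11), Parp9 (-0.66 ± 0.09) and Kynu (-1.04 ± 0.14), and among the higher Sirt6 (0.83 ± 0.12), Parp3 (0.50 ± 0.09), Parp4 (0.55 ± 0.11) and Parp6 (0.51 ± 0.11). Pnp splits nicotinamide riboside, and Kmo and Kynu act on kynurenine in the de novo route. In DEN tumours on ALIOS, Afmid (-1.92 ± 0.24), Nadk (-0.57 ± 0.07), Nmnat2 (-2.15 ± 0.29) and Pnp (-0.58 ± 0.09) led the lower genes. Sirt6 (0.79 ± 0.10), Parp11 (0.73 ± 0.14), Parp4 (0.68 ± 0.14) and Parp3 (0.40 ± 0.08) led the higher.

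In DEN tumours on the control diet the lower genes were led by Kynu (-1.50 ± 0.13), Ido2 (-1.40 ± 0.15), Sirt3 (-1.29 ± 0.14) and Slc25a51 (-1.12 ± 0.14), the carrier of NAD into mitochondria. The higher were led by Parp4 (0.83 ± 0.14), Parp8 (1.43 ± 0.27), Tnks2 (0.48 ± 0.11) and Sirt6 (0.80 ± 0.19). All of these passed the test with an adjusted p between 1.81e-08 (Kynu) and 0.0239 (Parp8 with diet in liver).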

How the data were processed

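RNA of 50 livers and tumours was measured by stranded mRNA sequencing (100 bp paired-end reads). The authors used STAR in its 2-pass mode against mm10 and deposited counts per gene from HTSeq (exons, intersection-nonempty) on Gencode M6; versions and the strand option were not stated, so reads of genes overlapping on opposite strands cannot be told apart. The table held 0 columns that belong to no sample.

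The counts were tested as deposited with edgeR 4.0.16 (R 4.3.3, TMM, filterByExpr, quasi-likelihood test), each pair of groups fitted alone, with Benjamini-Hochberg adjustment over all genes tested. All members passed the filter in every comparison. The SE of a log2 fold change was derived from the test, as its absolute value divided by the square root of the quasi-likelihood F statistic. DESeq2 1.42.0, limma 3.58.1, Python 3.11.15, pandas 2.3.3, numpy 2.4.6, scipy 1.17.1 and matplotlib 3.10.9 were also used. CPM used TMM over the 49 libraries without T1, and log2 CPM a prior count of 2. The factor of T1 alone came from a run over all 50 libraries. Exon lengths, coordinates and the symbols Fam169b and Gm15889 came from Gencode M21 (GRCm38). The edgeR and DESeq2 fits of 2 comparisons were also run on simulated counts. These were drawn independently for each library, without deviant libraries or shared mice, and their outcome is not reported here.

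Named genes were all members; of the wider NAD list, at most 4 called genes per direction and comparison with the smallest p; the 5 genes most correlated with Nmrk1; the gene next to it in p in the contrast that chose it; the gene with the largest part and the undetected genes of each marker list; kidney, tumour and central-vein hepatocyte markers that set libraries apart; and clock genes at the ends of the correlations with Nmrk1 or shown beside it (Arntl, Per3, Dbp, Nr1d1), picked with their values seen. Members and lists were chosen with earlier results of these data known. Alternatives were DESeq2 size factors, library totals, DESeq2's Wald test, no filter on low counts, all groups in one fit, T1 put back, and each library left out in turn.

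The results are transcript levels in bulk tissue. Enzyme activity and NAD itself were not analysed here. Spontaneous tumours on the control diet are 1 library, so the diets could not be compared in them, and DEN tumours on the control diet are 5. T2, T6 and T23 were kept as labelled. Promoter windows describe letters only.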

Additional observations from a re-analysis of the deposited data

Results flagged for a closer look

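Nmrk1 in the DEN tumours lay on opposite sides of the liver median on the 2 diets. In DEN tumours on ALIOS, 8 of 8 libraries were below the ALIOS liver median, with a median difference of -1.54 in log2 CPM, and in DEN tumours on the control diet 5 of 5 were above the control liver median, with a median difference of 0.45. Only T20 was above every control liver. The liver medians themselves differed, at 37.7 CPM on ALIOS and 24.9 CPM on the control diet. The difference between the diets was not tested, because the DEN tumours are the libraries on which Nmrk1 was selected. For the same reason these counts are a description, and the share of all genes lying on opposite sides was not counted.

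Nmnat3 in T1, the library left out of every main comparison, was at 13.2 CPM, above every control liver, the highest of which (N1) had 9.35 CPM.

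A search of the 5 and 8 DEN tumours for single outlying libraries, by Dixon's ratio of gap to range for each member, found 0 in 20 groups, where chance gives about 1.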

How the results depend on the processing

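No paired analysis was possible because livers and tumours are numbered in separate series and the labels tie no tumour to the liver of the same mouse. Over the members' tests, 228 values kept their direction and side of the threshold under the alternatives that kept every library, 11 lost the call, 3 gained it and 12 turned direction; with 1 library left out, the counts were 885, 34, 5 and 40. The cause was not tested. Every value that turned belonged to a member that was not called. With library totals Cd38 in spontaneous tumours was 0.0044. Nadsyn1 in DEN tumours on ALIOS was -0.0239 with DESeq2 size factors, -0.0245 with DESeq2, -0.0340 with no filter and -0.0540 with all groups in one fit, and -0.0522 to 0.0871 with a library left out. Cd38 in DEN tumours on the control diet was -0.0086, -0.0084, -0.0190 and -0.0339 in the same order, and -0.128 to 0.111 with a library left out, where Nadsyn1 was -0.0486 (without T20) to 0.136. Between DEN and spontaneous tumours, Qprt was 0.0031 with no filter and 0.0750 with T1, Cd38 was 0.0166 with T1, and with a library left out Qprt ran from -0.0650 to 0.0471, Cd38 from -0.142 to 0.0228, Parp1 from -0.0514 to 0.0595 and Nnmt from -1.44 to 0.58. Between diets in liver, the genes called fell from 1542 to 623 with all groups in one fit and ran from 949 (without N17) to 2343 (without N13) with a library left out, with 957 without N19; members called were 1 with library totals (Qprt), 1 with DESeq2 (Nadsyn1) and 0 to 1 with a library left out, against 0 by edgeR with 4 at an unadjusted p under 0.05. Between DEN and spontaneous tumours the genes called were 0 by edgeR (1079 at an unadjusted p under 0.05), 67 with DESeq2, 403 with all groups in one fit, and 0 to 15 with a library left out (8 without T4, 15 without T22). Members called in spontaneous tumours were 8, and 5 with T1. Library totals moved the median of all genes to 0.19 in spontaneous tumours and 0.21 in DEN tumours on ALIOS, from 0.01 and 0.08. The share of calls that were higher went from 59.9% to 87.1% with diet in liver (77.8% with all groups in one fit), from 50.9% to 72.9% in spontaneous tumours and from 58.3% to 73.9% in DEN tumours on ALIOS. Depth limits Nnmt most, at 2 counts in T13.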

Other observations

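T7, the 1 spontaneous tumour on the control diet, enters no test. It held 43.1 CPM of Nampt, 15.5 of Nmnat1, 5.53 of Nmnat3, 8.63 of Nmrk1, 184 of Qprt, 20.3 of Nadsyn1, 1.33 of Nnmt, 8.286 of Sirt1, 17.8 of Cd38 and 28.4 of Parp1. Its Nampt, Nmnat1, Qprt, Nnmt and Parp1 lay below every control liver, its Sirt1 barely so (lowest N9, 8.295 CPM), and its Cd38 within them.

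T1 held the kidney genes Kap, Umod (1165 CPM) and Slc12a1 (264 CPM), and its members differed from the liver pattern. Qprt was at 47.0 CPM, where the other 49 libraries started at 128 CPM, and Nnmt at 0.322 CPM, while Nampt (117 CPM), Nmrk1 (33.8 CPM) and Sirt1 (15.2 CPM) were within the range of the control livers. Traces of Kap were also found in the ALIOS liver N22 (4.73 CPM) and in the tumour T2 (1.65 CPM). Slc12a1 was also present in tumours, with Kap and Umod at 0 CPM in every DEN tumour, and had medians of 3.74 CPM in spontaneous tumours on ALIOS and 11.7 CPM in DEN tumours on ALIOS, against at most 0.0740 CPM in any liver.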
